A study of Bos taurus with 29 samples.

Results

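Bovine corpus luteum with medium of endometrial explants that had held an embryo was compared with corpus luteum with medium of explants that had held none. The comparison was chosen by the medium label and uses 9 of the 12 corpus luteum libraries in the deposited table, whose study has 29 labelled samples over endometrium and corpus luteum. The embryo side pools 6 libraries: 3 of CL-CM-EE-AI, whose medium came from explants with 1 in vivo embryo, and 3 of CL-CM-EE-IVF, whose medium came from explants with 1 in vitro embryo. The embryos were at day 7. The other side is the 3 libraries of CL-CM-EE, whose medium came from explants alone, so all 9 libraries share tissue and explant medium and no untreated library enters. CM was read as conditioned medium, which the labels do not spell out. Each group holds 1 library numbered R2, R4 and R5, and values of a group are given in that order below. The labels give a slaughterhouse source and polyA RNA, and do not say whether a library is 1 animal, a pool, or a piece of a corpus luteum shared between groups, so p-values measure only the spread between these libraries. The 9 libraries stand for 15 labelled samples, because R4 and R5 have 2 titles per group and R2 has 1.

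The corpus luteum forms from the ovulated follicle and secretes progesterone, which holds the uterus ready for an embryo. Its steroidogenic cells take up or make cholesterol, import it into mitochondria through STAR, cut it to pregnenolone with CYP11A1 and turn that into progesterone with HSD3B1, under the drive of luteinizing hormone through LHCGR. The gland is also densely vascular and holds stromal and immune cells. In cattle prostaglandin F2α from the uterus ends its life unless the conceptus signals through interferon tau, which induces interferon-stimulated genes. The title of the study names small extracellular vesicles as carriers between embryo, endometrium and corpus luteum.

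The libraries held between 16536797 and 25747637 counts, and levels are given below as CPM, normalised counts-per-million. Transcripts of STAR, CYP11A1, HSD3B1 and LHCGR were counted in all 9. Mitochondrial transcripts took 51.2% ± 4.22 of the counts with embryo media and 54.1% ± 9.14 in CL-CM-EE (SD, n = 6 and n = 3), with an exact two-sided permutation p within R numbers of 0.222. RN7SL1, the RNA of the signal recognition particle, took 1.19% ± 0.338 with embryo media and 1.61% ± 0.491 in CL-CM-EE, with p = 0.037 by the same exact test, the smallest that its 27 arrangements can give and 0.259 after adjustment over 7 such measures. On the first principal component, with 34.9% of the variance, the libraries spread by R number and also within it. CL-CM-EE-AI R2 sat at -61.6, against 56.7 for CL-CM-EE-IVF R2 and 49.6 for CL-CM-EE R2, and CL-CM-EE-AI R4 sat at 115, against 17.6 for CL-CM-EE-IVF R4 and 28.2 for CL-CM-EE R4. Both libraries stand apart from those of their number. The R number took 45.6% of the variance over genes, the side of the comparison 8.66% and the difference between the embryo media 6.03%. The other 39.7% lay outside these terms, and the shares were not tested against it. Past an edgeR adjusted p of 0.05, 5493 of 18404 genes (29.8%) differed between R numbers.

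**Figure D1:**
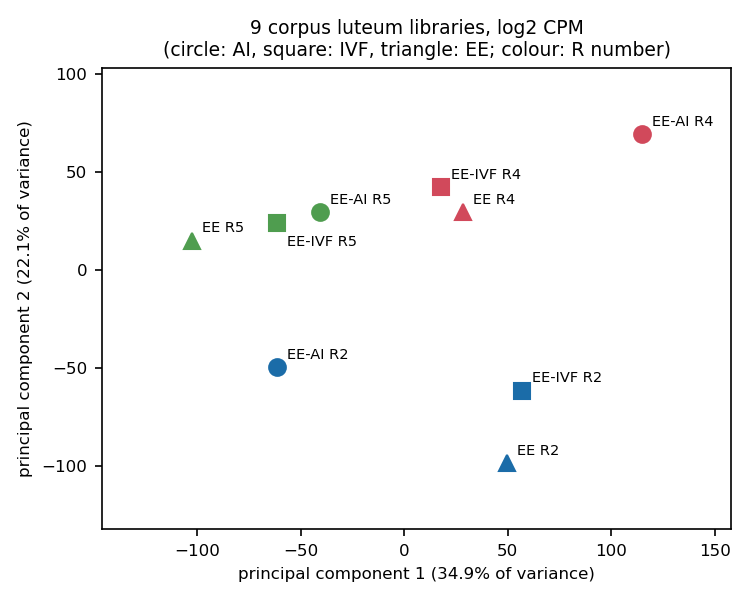
Position of the 9 corpus luteum libraries on principal components 1 and 2 of log2 CPM (34.9% and 22.1% of variance). Circles are CL-CM-EE-AI, squares CL-CM-EE-IVF and triangles CL-CM-EE, coloured by R number. The R4 and R5 libraries of CL-CM-EE-IVF and CL-CM-EE lie nearer to those of their own number, and CL-CM-EE-AI R2 and R4 lie away from theirs.

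No single gene passed the threshold between embryo media and CL-CM-EE. By edgeR's quasi-likelihood test with the R number as a block, 0 of 18404 genes (0%) had a Benjamini-Hochberg adjusted p under 0.05, and the lowest adjusted p was 0.428. An unadjusted p under 0.05 was reached by 1012 genes in the higher direction (5.5%) and 747 in the lower (4.06%), together 9.56%. The median gene had a log2 fold change of 0.04, and 54.3% of the genes lay above 0. All 6 embryo libraries lay above the CL-CM-EE library of their own R number for 1423 genes (7.73%) and below it for 844 (4.59%). The 6 embryo libraries did not overlap the 3 of CL-CM-EE for 153 genes in the higher direction (0.831%) and 114 in the lower (0.619%). Without the block the same p was reached by 176 genes in the higher direction and 217 in the lower, together 2.14%.

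The number of genes called depended on the tool. DESeq2 with the same block called 83 genes, 41 higher and 42 lower, out of 10911 to which it gave an adjusted p. All 83 had an unadjusted edgeR p under 0.05, and in 41 of them all 6 embryo libraries were above, in 35 all were below. Both tools used the same counts and block, and the embryo libraries of a number share its CL-CM-EE library, so this is no separate support. Limma voom called 1 gene, MYO15B. The scaling set the balance of directions: of the genes with an unadjusted p under 0.05, 57.5% were higher with TMM factors, 48.6% with DESeq2 size factors, 45.4% without mitochondrial genes and ribosomal RNA, and 92.5% with library totals alone, which put the median gene at 0.19. Directions named below held under these scalings unless stated otherwise. Of the 33 gene lists, 20 kept the sign of their median with any 1 library left out. Without CL-CM-EE R4 the genes with an unadjusted p under 0.05 numbered 768, and without CL-CM-EE-IVF R2 1110. Without CL-CM-EE-AI R2 they numbered 2299 and without CL-CM-EE-AI R4 1575, with 0 called by edgeR in either case.

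The 8 genes with the lowest p among those higher with embryo media covered several functions. CAPRIN2, an RNA-binding protein, was at 11.3, 31.99 and 25.9 CPM in CL-CM-EE-AI, at 15.2, 26.3 and 21.8 CPM in CL-CM-EE-IVF and at 5.75, 13.2 and 13.98 CPM in CL-CM-EE. That is a log2 fold change of 1.03 (95% interval from 0.65 to 1.41, unadjusted p = 9.52e-05). In every R number both embryo libraries were above CL-CM-EE, while the groups overlapped because CL-CM-EE-AI R2 was below CL-CM-EE R4 and R5. GRB14, an adaptor that restrains the insulin receptor, was at 19.6, 33.7 and 65.6 CPM in CL-CM-EE-AI, at 22.7, 35.5 and 59.1 CPM in CL-CM-EE-IVF and at 12.5, 22.2 and 38.2 CPM in CL-CM-EE. Its log2 fold change was 0.70 (interval from 0.43 to 0.97), and it ran from 0.68 to 0.74 when any 1 library was left out. MGP, the matrix Gla protein that inhibits calcification, was at 473, 563 and 309 CPM in CL-CM-EE-AI, at 551, 531 and 323 CPM in CL-CM-EE-IVF and at 353, 330.4 and 176 CPM in CL-CM-EE. Here too both embryo libraries of each number were above their CL-CM-EE library, with a log2 fold change of 0.70 (95% interval from 0.43 to 0.98, unadjusted p = 0.000166).

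The epsilon subunit of mitochondrial ATP synthase, ATP5F1E, did not overlap between the sides. It was at 29.02, 41.8 and 21.2 CPM in CL-CM-EE-AI, at 33.7, 33.4 and 21.2 CPM in CL-CM-EE-IVF and at 18.6, 18.5 and 14.9 CPM in CL-CM-EE. The lowest embryo library, CL-CM-EE-AI R5 or CL-CM-EE-IVF R5 at 21.2 CPM, was above the highest CL-CM-EE library at 18.6 CPM, and the log2 fold change was 0.76 (interval from 0.43 to 1.09). ANKRD1, an ankyrin repeat protein of muscle and of YAP-responsive cells, averaged 19.9 ± 10.6 CPM in the embryo media and 10.8 ± 7.53 CPM in CL-CM-EE (SD, n = 6 and n = 3), a log2 fold change of 0.95 (95% interval from 0.53 to 1.37, unadjusted p = 0.000420). WDR19, a transport protein of cilia, averaged 60.5 ± 32.2 CPM in the embryo media and 35.5 ± 26.4 CPM in CL-CM-EE, a log2 fold change of 0.86. ZMYM3, a zinc finger protein, had 0.89 and CLHC1 had 0.84. For these 4 genes as well, 6 of 6 embryo libraries were above the CL-CM-EE library of their number, and DESeq2 called all 8 from the same counts. Choice by lowest p with the R number as a block favours such an order, here and in the lower direction.

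Among the genes lower with embryo media, PERM1 separated the sides in full. PERM1, a regulator of mitochondrial genes known from muscle, was at 5.70, 6.48 and 6.65 CPM in CL-CM-EE-AI, at 3.96, 9.60 and 4.86 CPM in CL-CM-EE-IVF and at 10.8, 20.6 and 11.8 CPM in CL-CM-EE. Its highest embryo library, CL-CM-EE-IVF R4, was below its lowest CL-CM-EE library, R2, with a log2 fold change of -1.19 (95% interval from -1.63 to -0.74, unadjusted p = 0.000106). GPR137B, a lysosomal membrane protein, was at 48.9, 16.4 and 17.95 CPM in CL-CM-EE-AI, at 41.2, 17.99 and 17.7 CPM in CL-CM-EE-IVF and at 62.8, 40.6 and 31.6 CPM in CL-CM-EE. ATP8B1, a phospholipid flippase, averaged 43.1 ± 29.9 CPM in the embryo media and 71.97 ± 55.8 CPM in CL-CM-EE, a log2 fold change of -0.72. Both were below CL-CM-EE in 6 of 6 embryo libraries while the R2 libraries as a whole were higher than the rest. SFI1, a centrosomal protein, had a log2 fold change of -1.09, DNAH17, an axonemal dynein chain, -1.16, and OPA3, a mitochondrial protein, -0.74, again with 6 of 6 embryo libraries below.

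A pair of further genes with low p was set apart by CL-CM-EE R2 and R5. TMEM201, an inner nuclear membrane protein, was at 5.07, 2.23 and 4.06 CPM in CL-CM-EE-AI, at 5.78, 4.29 and 4.90 CPM in CL-CM-EE-IVF and at 32.9, 3.87 and 60.3 CPM in CL-CM-EE. CL-CM-EE R4 lay among the embryo libraries and below CL-CM-EE-IVF R4. The log2 fold change was -2.48. Leaving out CL-CM-EE R4 put it at -3.19, when edgeR called the gene (adjusted p = 0.0131), and leaving out CL-CM-EE R5 put it at -1.62. MYO15B, an unconventional myosin, was at 0.676, 0 and 0.491 CPM in CL-CM-EE-AI, at 0.592, 0.669 and 0.689 CPM in CL-CM-EE-IVF and at 10.1, 0.885 and 8.55 CPM in CL-CM-EE. Its groups did not overlap, yet CL-CM-EE R4 was close to the nearest embryo library, and CL-CM-EE R2 and R5 were far above both, with a log2 fold change of -3.27 (interval from -4.71 to -1.84). These 2 CL-CM-EE libraries had the lowest TMM factors of the 9, 0.834 and 0.887, and the part of that in these genes was not tested.

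**Figure D2:**
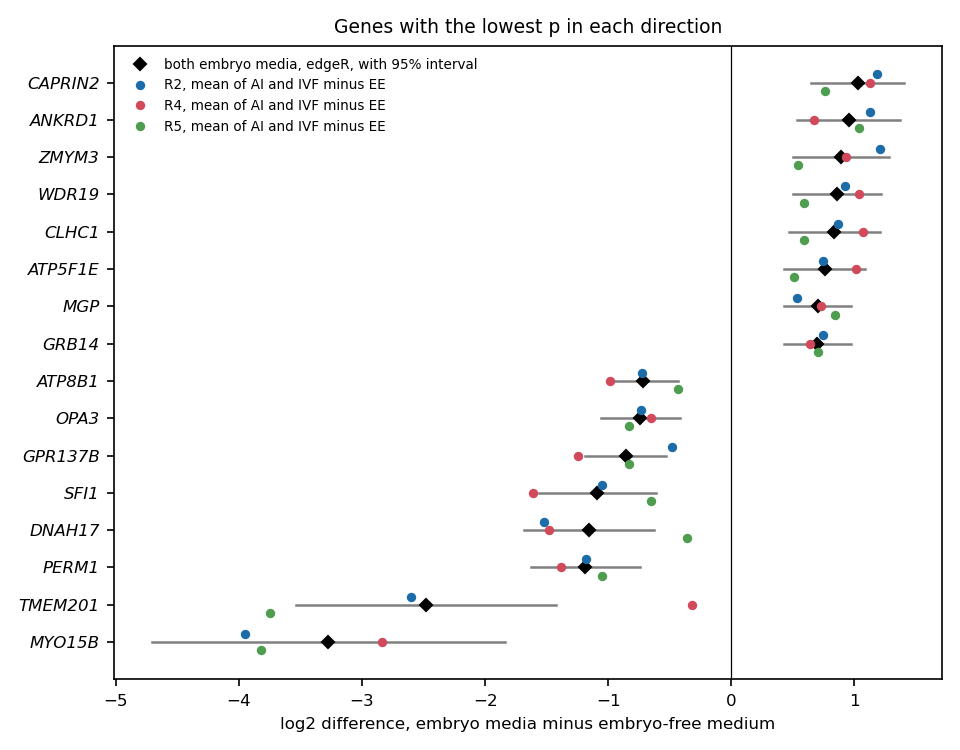
Log2 difference, embryo media minus CL-CM-EE, of 16 genes, the 8 of either direction that had the lowest p. Diamonds with bars are edgeR log2 fold changes with 95% intervals, and circles are the difference within R2, R4 and R5 on log2 CPM. The intervals of all 16 leave out 0, which follows from the choice by lowest p. For TMEM201 the R4 value lies near 0 while R2 and R5 lie far below it.

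Among genes of luteal steroid production, 22 of 32 members tested (68.8%) lay above 0, beside 54.3% of all genes. In that list 9 had an unadjusted p under 0.05 in the higher direction and 1 in the lower, 0 passed the adjusted threshold by edgeR, and DESeq2 called LHCGR. An unadjusted p under 0.05 is called a low p below, and a value given for a gene without a unit is its edgeR log2 fold change. For each list, the shares over all genes tested are 54.3% above 0, 5.5% higher and 4.06% lower at a low p. The steroid list's median log2 fold change was 0.27, beside 0.04 over all genes. Within R2, R4 and R5 the median was 0.24, 0.18 and 0.24. It ran from 0.15 to 0.35 when 1 library was left out, lowest without CL-CM-EE-AI R4 and highest without CL-CM-EE-AI R2. Without CL-CM-EE-AI R2, 13 members had an unadjusted p under 0.05 in the higher direction, and without any 1 of the CL-CM-EE libraries 6 did. With no block, 1 did.

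LHCGR, the luteinizing hormone receptor, was at 73.01, 226 and 279 CPM in CL-CM-EE-AI, at 105, 135 and 238 CPM in CL-CM-EE-IVF and at 55.6, 63.1 and 170.4 CPM in CL-CM-EE. Both embryo libraries of each number were above CL-CM-EE, while the sides overlapped because CL-CM-EE R5 was higher than 3 of the embryo libraries. This gave a log2 fold change of 0.91 (95% interval from 0.41 to 1.41, unadjusted p = 0.00217), and DESeq2 called it with an adjusted p of 0.0195. NR5A1, the transcription factor SF-1 that drives steroidogenic genes, was at 29.5, 51.7 and 58.8 CPM in CL-CM-EE-AI, at 37.9, 40.3 and 48.8 CPM in CL-CM-EE-IVF and at 21.6, 26.1 and 39.2 CPM in CL-CM-EE. Again 6 of 6 embryo libraries were above their own CL-CM-EE library, with a log2 fold change of 0.63 (95% interval from 0.30 to 0.97, unadjusted p = 0.00160). HSD3B1, the dehydrogenase of the last step to progesterone, was at 585, 2435 and 919.6 CPM in CL-CM-EE-AI, at 975, 1289 and 774 CPM in CL-CM-EE-IVF and at 436, 1047 and 552 CPM in CL-CM-EE. The order within each number was the same, with a log2 fold change of 0.76 (95% interval from 0.27 to 1.25, unadjusted p = 0.00597).

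For CYP11A1 and STAR, which act upstream, the intervals included 0. CYP11A1, the side-chain cleavage enzyme, was at 309, 1088 and 210.1 CPM in CL-CM-EE-AI, at 541, 628 and 195 CPM in CL-CM-EE-IVF and at 307, 566 and 176 CPM in CL-CM-EE. All 6 embryo libraries were above CL-CM-EE of their number, narrowly so CL-CM-EE-AI R2, and the log2 fold change was 0.42 (interval from -0.05 to 0.89, unadjusted p = 0.0754). STAR, the mitochondrial importer of cholesterol, was at 151, 972 and 129 CPM in CL-CM-EE-AI, at 274, 513 and 136 CPM in CL-CM-EE-IVF and at 163, 457 and 153 CPM in CL-CM-EE. It was above CL-CM-EE in 3 of 6 embryo libraries, with CL-CM-EE-AI R4 highest, and its log2 fold change of 0.28 (interval from -0.28 to 0.84) ran from 0.10 to 0.54 with 1 library left out. GATA4, a transcription factor of gonadal cells, had 0.43 (unadjusted p = 0.00614). SCARB1, the receptor for high-density lipoprotein, had 0.35 (unadjusted p = 0.0448), and PRLR, the prolactin receptor, 0.52 (unadjusted p = 0.0303). The member lower at an unadjusted p under 0.05 was MC2R, the corticotropin receptor, whose mean was 0.201 CPM in the embryo media and 0.756 CPM in CL-CM-EE. GATA4, SCARB1, PRLR and MC2R were named after their values were seen.

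**Figure D3:**
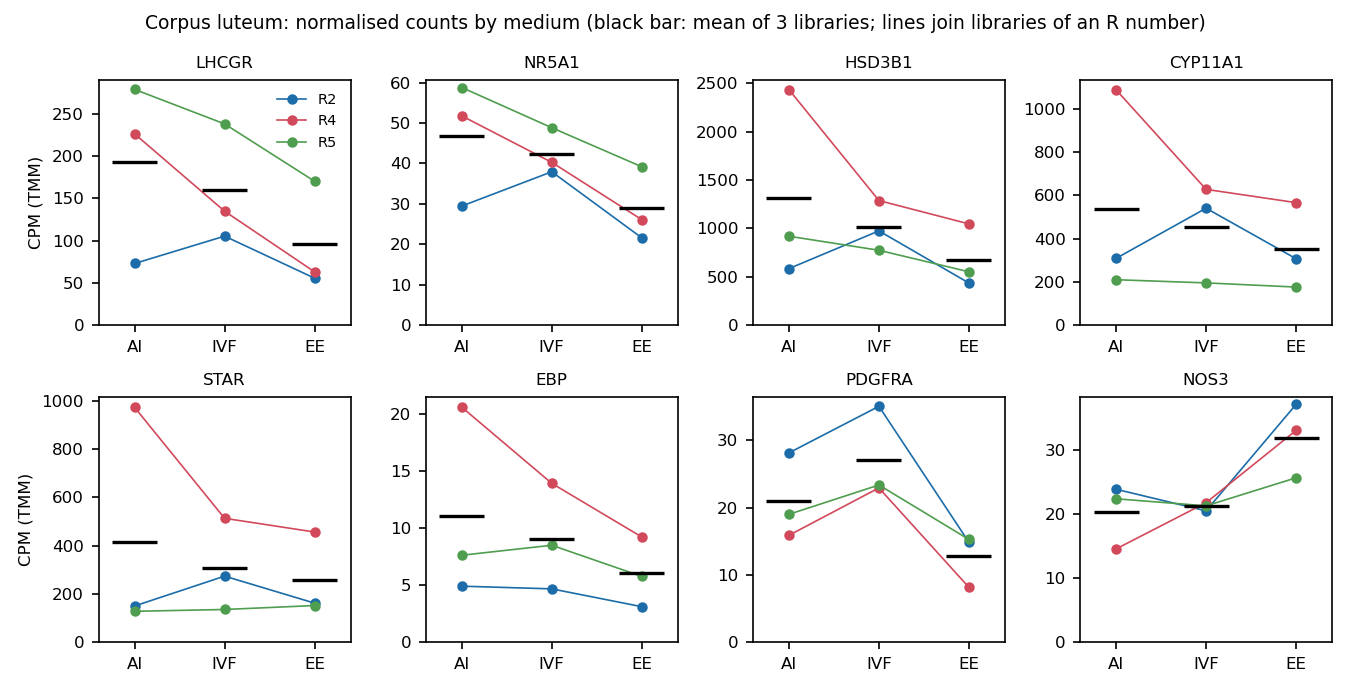
TMM-normalised CPM of 8 genes in each library, by medium (AI, IVF and EE stand for CL-CM-EE-AI, CL-CM-EE-IVF and CL-CM-EE). Lines join libraries of an R number and black bars are means of 3. LHCGR, NR5A1, HSD3B1, EBP and PDGFRA are above EE in both embryo media of each R number, STAR in 3 of 6 libraries, and NOS3 is below EE in 6 of 6.

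In cholesterol synthesis 23 of 24 members lay above 0, 12 had a low p in the higher direction and 0 in the lower. Of all genes 54.3%, 5.5% and 4.06% did. The list's median was 0.43, and it was 0.45, 0.40 and 0.49 within R2, R4 and R5. EBP, a sterol isomerase, was at 4.93, 20.6 and 7.64 CPM in CL-CM-EE-AI, at 4.69, 13.9 and 8.51 CPM in CL-CM-EE-IVF and at 3.13, 9.24 and 5.78 CPM in CL-CM-EE. Both embryo libraries of each number were above CL-CM-EE, while the R4 libraries were above the others, with a log2 fold change of 0.67 (95% interval from 0.24 to 1.09, unadjusted p = 0.00565). INSIG1, which holds the sterol sensor in the endoplasmic reticulum and is itself induced when that sensor is active, was at 48.9, 367 and 74.3 CPM in CL-CM-EE-AI, at 69.7, 418 and 89.3 CPM in CL-CM-EE-IVF and at 49.3, 253 and 54.5 CPM in CL-CM-EE. Of the embryo libraries 5 of 6 were above, with CL-CM-EE-AI R2 just below CL-CM-EE R2, and a log2 fold change of 0.49 (95% interval from 0.16 to 0.83, unadjusted p = 0.00833). CYP51A1 had 0.60, MSMO1 0.59, DHCR7 0.54 and SQLE 0.45, all enzymes of the pathway. GGPS1, which makes geranylgeranyl diphosphate outside the sterol branch, was the member below 0, at -0.01, and lay above 0 with library totals. These 5 genes were named after their values were seen.

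How many cholesterol genes had a low p turned on single libraries. In the higher direction there were 18 with CL-CM-EE-AI R2, 7 with CL-CM-EE-AI R4 and 6 with CL-CM-EE-IVF R2 left out. Of the CL-CM-EE libraries, leaving out R2 gave 6, R4 8 and R5 4, and the fit with no block gave 0. The median ran from 0.35 to 0.52 in all 9 of these fits with 1 library left out. Of the 24 members, 22 differed between R numbers past an edgeR adjusted p of 0.05. The summed level of the list was at 1164, 5574 and 1854 CPM in CL-CM-EE-AI, at 1860.0, 3661 and 2019 CPM in CL-CM-EE-IVF and at 1115, 3408 and 1392 CPM in CL-CM-EE. CL-CM-EE-AI R2 was close to its CL-CM-EE library, and the other embryo libraries were above theirs.

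Nuclear genes of oxidative phosphorylation lay above 0 in 34 of 35 members, 7 of them with an unadjusted p under 0.05. The median was 0.31, and 0.16, 0.48 and 0.28 within R2, R4 and R5. It ran from 0.19 (CL-CM-EE-AI R4 left out) to 0.39 (CL-CM-EE R2 left out). ATP5MC3, a subunit of the ATP synthase ring, was at 15.6, 25.96 and 6.79 CPM in CL-CM-EE-AI, at 19.4, 20.7 and 7.29 CPM in CL-CM-EE-IVF and at 11.3, 16.9 and 4.82 CPM in CL-CM-EE. All 6 embryo libraries were above CL-CM-EE of their number, with a log2 fold change of 0.54 (95% interval from 0.20 to 0.89, unadjusted p = 0.00522). NDUFB8, a subunit of complex I, was at 7.001, 16.2 and 6.25 CPM in CL-CM-EE-AI, at 10.7, 10.7 and 4.58 CPM in CL-CM-EE-IVF and at 7.39, 6.42 and 2.89 CPM in CL-CM-EE. CL-CM-EE-AI R2 was the embryo library below its CL-CM-EE library, and the log2 fold change was 0.72 (unadjusted p = 0.0150). The 13 mRNAs encoded by the mitochondrial genome took 37.1% ± 5.45 of the counts with embryo media and 37.7% ± 10.4 in CL-CM-EE. The exact permutation p within R numbers was 0.889. By edgeR these mRNAs lay the other way: 0 of 13 were above 0, none had an unadjusted p under 0.05, and their median was -0.16. Within R2, R4 and R5 that median was -0.24, 0.22 and -0.42, so R4 had the opposite sign, and it was close to 0 without CL-CM-EE R5 and with library totals. ND4 of complex I averaged 23418 ± 6845 CPM in the embryo media and 28002 ± 12343 CPM in CL-CM-EE, and ND3 averaged 5229 ± 2242 CPM in the embryo media and 6197 ± 3685 CPM in CL-CM-EE. With 1 library left out, between 2 and 12 nuclear members had a low p, 2 without CL-CM-EE R4, 4 without CL-CM-EE-AI R4 and 12 without CL-CM-EE-IVF R4, and with no block 0 did.

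Fibroblast and stroma markers had a median of 0.56, with 10 of 13 members above 0 and 5 of 13 at an unadjusted p under 0.05 in the higher direction. Leaving out CL-CM-EE R4 gave 2 at a low p and a median of 0.41, and the fit with no block gave 1. Over the fits lacking 1 library the median ran from 0.38 (CL-CM-EE-IVF R4 left out) to 0.82 (CL-CM-EE R5 left out). PDGFRA, the receptor that marks fibroblasts and that also stands in the angiogenic list, was at 28.2, 15.9 and 19.02 CPM in CL-CM-EE-AI, at 35.1, 22.9 and 23.4 CPM in CL-CM-EE-IVF and at 14.9, 8.19 and 15.3 CPM in CL-CM-EE. Its lowest embryo library, CL-CM-EE-AI R4, was above its highest CL-CM-EE library, R5, so the sides did not overlap, with a log2 fold change of 0.92 (95% interval from 0.48 to 1.36, unadjusted p = 0.000803). DCN, the collagen-binding proteoglycan decorin, was at 51.7, 46.6 and 21.5 CPM in CL-CM-EE-AI, at 73.3, 45.3 and 28.7 CPM in CL-CM-EE-IVF and at 47.02, 29.5 and 17.7 CPM in CL-CM-EE. By number 6 of 6 embryo libraries were above, with the sides overlapping, and a log2 fold change of 0.52 (95% interval from 0.17 to 0.86, unadjusted p = 0.00678). COL1A2, a chain of collagen I, had 0.75 and LUM, lumican, 0.69, both picked with their values known and at 0.45 and 0.41 without CL-CM-EE R4. All markers named here were higher, while the lowest member of the list lay at -0.55. The summed level of the markers was at 849, 598 and 391 CPM in CL-CM-EE-AI, at 1108, 992 and 402 CPM in CL-CM-EE-IVF and at 669, 366 and 348 CPM in CL-CM-EE. In R5 the 3 libraries were close to one another, and the median was 0.39, 0.85 and 0.03 within R2, R4 and R5. MFAP5 was the 1 marker at 0 in any library. In bulk tissue more cells of a type and more RNA per cell cannot be told apart.

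Genes of the extracellular matrix, a list that shares collagens and DCN with the markers, had 24 of 38 members above 0, 7 higher and 2 lower at an unadjusted p under 0.05, and a median of 0.14. COL6A1, a chain of collagen VI, was at 134, 47.3 and 133 CPM in CL-CM-EE-AI, at 169, 72.5 and 119 CPM in CL-CM-EE-IVF and at 112, 35.1 and 101 CPM in CL-CM-EE. All 6 embryo libraries were above the CL-CM-EE library of their number, with a log2 fold change of 0.51 (95% interval from 0.14 to 0.87, unadjusted p = 0.0113). Members in the other direction were PLAT, the tissue plasminogen activator, at -0.50 (unadjusted p = 0.0163) and ADAMTS1, a matrix protease, at -0.46 (unadjusted p = 0.0214), both named after their values were seen and at -0.25 and -0.17 without CL-CM-EE R4. In the higher direction 1 member had a low p without CL-CM-EE R4, 12 did without CL-CM-EE-AI R4 and 0 with no block, while in the lower direction 5 did without CL-CM-EE R5. The list's median ran from 0.09 (CL-CM-EE R4 left out) to 0.28 (CL-CM-EE R2 left out). The matrix median by medium was 0.07 for CL-CM-EE-AI and 0.27 for CL-CM-EE-IVF against CL-CM-EE.

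Endothelial genes went the other way in number. Of 20 endothelial markers 2 lay above 0, 3 had an unadjusted p under 0.05 in the lower direction, and the median was -0.19. It was -0.37, -0.58 and 0.08 within R2, R4 and R5, so R5 differed in sign, and -0.04 with library totals. With 1 library left out it ran from -0.35 (CL-CM-EE R5 left out) to -0.09 (CL-CM-EE R4 left out). The 3 members at a low p became 0 without CL-CM-EE R2, R4 or CL-CM-EE-IVF R2, 1 without CL-CM-EE-AI R4, 5 without CL-CM-EE-AI R5 and 8 without CL-CM-EE R5, and with no block there were 0. The summed level was at 4242, 1591 and 1694 CPM in CL-CM-EE-AI, at 3966, 1497 and 1589 CPM in CL-CM-EE-IVF and at 5228, 2185 and 1573 CPM in CL-CM-EE. The embryo libraries were below CL-CM-EE in R2 and R4 and slightly above it in R5. CLDN5, a tight junction protein of endothelium, had -0.57 (unadjusted p = 0.0228) and CDH5, vascular cadherin, -0.35 (unadjusted p = 0.0418). Without CL-CM-EE R4 they were at -0.38 and -0.19. Both were named after their values were seen, and no endothelial marker was at 0 in any library.

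The list of angiogenic ligands and receptors, which overlaps these markers, had 9 of 29 members above 0, 1 higher and 6 lower at an unadjusted p under 0.05, and a median of -0.15 (-0.01 with library totals). Leaving out CL-CM-EE R4 gave 2 lower and a median of -0.04, and the fit with no block gave 1 lower. DLL4, the Notch ligand of tip cells, was at 132, 36.6 and 27.8 CPM in CL-CM-EE-AI, at 123, 29.6 and 26.8 CPM in CL-CM-EE-IVF and at 189, 55.6 and 32.4 CPM in CL-CM-EE. It was below CL-CM-EE in 6 of 6 by number, with the R2 libraries far above the rest, and a log2 fold change of -0.53 (95% interval from -0.82 to -0.24, unadjusted p = 0.00216). VEGFC, PDGFC and EFNB2, all vascular ligands and chosen after their values were seen, had -0.44, -0.51 and -0.42, the last 2 at -0.25 and -0.23 without CL-CM-EE R4. VEGFA, the main angiogenic growth factor of the gland, was at 109, 197 and 44.4 CPM in CL-CM-EE-AI, at 117, 116 and 53.3 CPM in CL-CM-EE-IVF and at 135, 139 and 35.1 CPM in CL-CM-EE. It was above in 3 of 6, and its log2 fold change was 0.12 (interval from -0.29 to 0.54), but -0.044 with CL-CM-EE R5 left out.

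**Figure D4:**
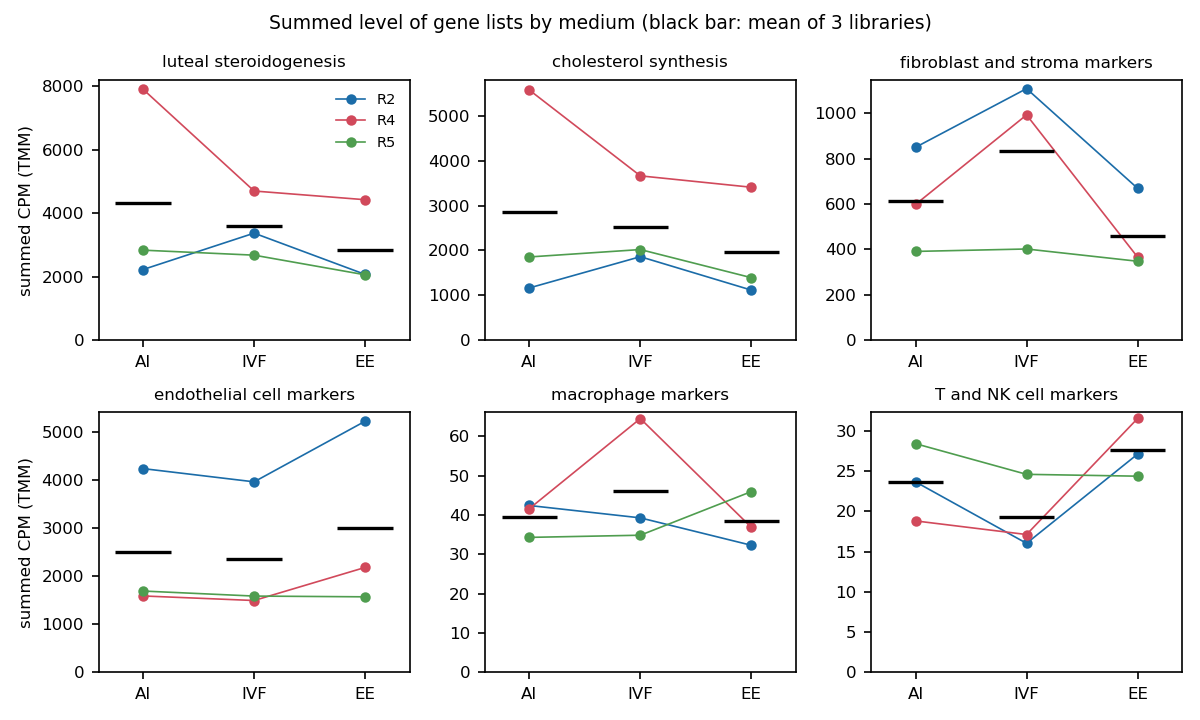
Summed TMM-normalised CPM of 6 gene lists in each library, by medium (AI, IVF and EE stand for CL-CM-EE-AI, CL-CM-EE-IVF and CL-CM-EE). Lines join libraries of an R number and black bars are means of 3. Steroidogenesis, cholesterol and stroma sums are lowest in EE in every R number, and endothelial sums are highest in EE in R2 and R4.

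Markers of other cells were at low or uneven levels. The 14 macrophage markers summed to between 34.3 and 64.5 CPM with embryo media and 32.3 and 45.9 CPM in CL-CM-EE, with a median log2 fold change of 0.23 (0.05 without CL-CM-EE-AI R2 and 0.06 without CL-CM-EE R2), 9 of 14 above 0, none at an unadjusted p under 0.05, and MARCO and TYROBP at 0 in some library. The 17 T and NK cell markers tested summed to between 16.03 and 28.4 CPM with embryo media and 24.4 and 31.5 CPM in CL-CM-EE, with a median of -0.32 that was -0.18 with CL-CM-EE-AI R4 left out and -0.03 with CL-CM-EE R4 left out, and with GZMB at 0 in some library. Smooth muscle and pericyte markers had 12 of 16 above 0, 2 higher and 2 lower at an unadjusted p under 0.05, a median of 0.28 (0.13 without CL-CM-EE R4, when 0 had a low p), and sums of 352 to 781 CPM with embryo media and 303 to 771 CPM in CL-CM-EE. Follicle cell markers had 7 of 11 above 0 and 2 higher at a low p, with a median of 0.16 (0.05 without CL-CM-EE R4). FSHR, the receptor of granulosa cells and also chosen after its values were seen, averaged 19.8 CPM in the embryo media and 12.3 CPM in CL-CM-EE (unadjusted p = 0.00589). The B and plasma cell, neutrophil and mast cell, epithelial and erythrocyte lists had 8, 3, 9 and 7 members tested and none at a low p. The B and plasma cell median of 0.36 was 0.10 without CL-CM-EE-AI R2, the epithelial one of 0.17 was 0.03 without it, and the neutrophil and erythrocyte medians changed sign with the library left out. Their defining genes MS4A1, CXCR2, MPO, EPCAM and SLC4A1 were at 0 in some library. The part of cell makeup in the gene differences was not tested.

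Complement genes had 5 of 22 members higher and 1 lower at an unadjusted p under 0.05, with 11 above 0 and a median of 0.08, which ran from 0.05 (CL-CM-EE-IVF R4 left out) to 0.31 (CL-CM-EE R5 left out). C4A, the fourth component, was at 42.2, 113 and 126 CPM in CL-CM-EE-AI, at 57.1, 76.9 and 107 CPM in CL-CM-EE-IVF and at 31.4, 51.00 and 80.3 CPM in CL-CM-EE. It was above in 6 of 6, with a log2 fold change of 0.69 (95% interval from 0.33 to 1.06, unadjusted p = 0.00165), and near-identical C4 copies may share its reads. C1S, a protease of the first component, had 0.85 (unadjusted p = 0.00332), C7, a part of the membrane attack complex, 0.60 (unadjusted p = 0.00235) and CFP, properdin, 1.09 (unadjusted p = 0.0322). DESeq2 called C4A and C1S. CD46, a membrane regulator, was the member in the other direction at -0.47 (unadjusted p = 0.0220), and it, C1S, C7 and CFP were named after their values were seen.

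Of 40 interferon-stimulated genes 28 (70.0%) lay above 0, 4 had an unadjusted p under 0.05 in the higher direction and 2 in the lower. Among all genes 54.3%, 5.5% and 4.06% did. The median of the list was 0.16. Within R2, R4 and R5 it was 0.21, 0.20 and 0.12, and it ran from 0.14 (CL-CM-EE-AI R4 left out) to 0.20 (CL-CM-EE R5 left out). Without CL-CM-EE R2, 1 was higher and 3 lower at a low p, and with no block 1 and 0. ISG15, the ubiquitin-like protein that interferon tau induces in ruminant tissues, was at 23.2, 40.97 and 20.2 CPM in CL-CM-EE-AI, at 21.2, 35.6 and 21.3 CPM in CL-CM-EE-IVF and at 25.4, 41.2 and 17.7 CPM in CL-CM-EE. The sides overlapped throughout, and the log2 fold change of -0.03 had an interval from -0.32 to 0.27, with a positive sign under library totals and in 6 other alternatives. MX1, an antiviral GTPase, was at 16.2, 180.4 and 71.7 CPM in CL-CM-EE-AI, at 24.6, 148 and 73.7 CPM in CL-CM-EE-IVF and at 14.7, 121 and 80.7 CPM in CL-CM-EE. It differed mainly by R number, and had 0.24 (interval from -0.14 to 0.62), while its relative MX2 had 0.63 (interval from -0.11 to 1.37), which was 0.29 without CL-CM-EE R2. IFI6, an interferon-induced mitochondrial protein, was at 7.63, 382 and 48.1 CPM in CL-CM-EE-AI, at 8.11, 270.3 and 49.6 CPM in CL-CM-EE-IVF and at 7.70, 184 and 27.6 CPM in CL-CM-EE. It was above in 5 of 6, and the R2 libraries lay far below those of R4, with a log2 fold change of 0.57 (95% interval from 0.17 to 0.97, unadjusted p = 0.00924). LGALS9, galectin-9, was at 62.97, 31.7 and 82.1 CPM in CL-CM-EE-AI, at 56.4, 25.4 and 75.8 CPM in CL-CM-EE-IVF and at 45.4, 89.4 and 164 CPM in CL-CM-EE. R2 lay the other way from R4 and R5, and its log2 fold change of -0.86 (unadjusted p = 0.0118) ran from -1.36 to -0.37 with 1 library left out.

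Antigen presentation had 14 of 21 members above 0, 1 higher and 2 lower at a low p, with a median of 0.08. NLRC5, the activator of class I genes, was at 67.7, 41.98 and 53.6 CPM in CL-CM-EE-AI, at 57.6, 49.7 and 51.9 CPM in CL-CM-EE-IVF and at 99.1, 103 and 58.9 CPM in CL-CM-EE. All 6 embryo libraries were below CL-CM-EE of their number, least in R5, with a log2 fold change of -0.68 (95% interval from -1.06 to -0.31, unadjusted p = 0.00215), and DESeq2 called it. Without CL-CM-EE R4 it was -0.41. BOLA-DOB, a class II chain, was at 0.290, 0.447 and 0.447 CPM in CL-CM-EE-AI, at 0.0455, 0.433 and 1.90 CPM in CL-CM-EE-IVF and at 4.004, 0.442 and 7.41 CPM in CL-CM-EE. CL-CM-EE R2 and R5 were above the embryo libraries and CL-CM-EE R4 lay among them, with a log2 fold change of -2.67 (-1.65 without CL-CM-EE R2). Of the inflammation and NF-kB list 12 of 27 were above 0, 2 higher and 2 lower at a low p, with a median of -0.07 that was 0.06 without CL-CM-EE R4 and positive with library totals. TNFAIP6, a hyaluronan-binding protein of the ovulating follicle, was at 6.66, 22.05 and 2.59 CPM in CL-CM-EE-AI, at 13.6, 10.1 and 3.48 CPM in CL-CM-EE-IVF and at 4.06, 9.07 and 0.570 CPM in CL-CM-EE. It was higher in 6 of 6, with a log2 fold change of 1.37 (95% interval from 0.55 to 2.19, unadjusted p = 0.00366). RELB, a subunit of NF-kB, averaged 13.1 ± 3.48 CPM in the embryo media and 18.5 ± 4.20 CPM in CL-CM-EE, with -0.52 and 6 of 6 embryo libraries below. The cytokine genes IL1B and IL1A, named after their values were seen, differed in sign at 1.52 (unadjusted p = 0.0159) and -1.10 (unadjusted p = 0.0234), and IL1A was at -0.63 without CL-CM-EE R4.

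Genes of prostaglandin synthesis and signalling had 8 of 23 members above 0, 2 higher and 1 lower at a low p, and a median of -0.10, which was positive with library totals. In the lower direction 5 members had a low p without CL-CM-EE-AI R2 and 0 without CL-CM-EE R4, and the median ran from -0.21 (CL-CM-EE R2 left out) to -0.03 (CL-CM-EE R4 left out). PTGFR, the receptor of prostaglandin F2α, was at 134, 672 and 115 CPM in CL-CM-EE-AI, at 221, 379.6 and 108 CPM in CL-CM-EE-IVF and at 124, 373 and 104 CPM in CL-CM-EE. It was above in 6 of 6, though narrowly in CL-CM-EE-IVF R5, and its log2 fold change was 0.37 (interval from -0.10 to 0.83, unadjusted p = 0.109), or 0.24 without CL-CM-EE-AI R4. PTGIS, prostacyclin synthase, was at 19.7, 41.03 and 50.9 CPM in CL-CM-EE-AI, at 26.7, 37.98 and 46.2 CPM in CL-CM-EE-IVF and at 18.1, 25.8 and 29.1 CPM in CL-CM-EE. Each number had both embryo libraries above CL-CM-EE, with a log2 fold change of 0.57 (95% interval from 0.25 to 0.89, unadjusted p = 0.00251). TBXAS1, thromboxane synthase, was at 17.7, 12.6 and 13.2 CPM in CL-CM-EE-AI, at 11.7, 13.6 and 16.9 CPM in CL-CM-EE-IVF and at 16.9, 32.8 and 19.4 CPM in CL-CM-EE. CL-CM-EE R4 was the highest library, and the log2 fold change of -0.66 became -0.27 without it.

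Luteolysis-associated genes had 11 of 30 above 0, 3 higher and 2 lower at a low p, and a median of -0.14 that was close to 0 without CL-CM-EE R4, -0.06 without CL-CM-EE-AI R2 and positive with library totals. With CL-CM-EE R5 left out 6 had a low p in the lower direction, and with CL-CM-EE R4 left out 0. NOS3, the endothelial nitric oxide synthase, was at 23.9, 14.6 and 22.4 CPM in CL-CM-EE-AI, at 20.5, 21.8 and 21.3 CPM in CL-CM-EE-IVF and at 37.1, 33.02 and 25.6 CPM in CL-CM-EE. The highest embryo library, CL-CM-EE-AI R2, was below the lowest CL-CM-EE library, R5, with a log2 fold change of -0.62 (95% interval from -0.99 to -0.25, unadjusted p = 0.00379). AGTR1, the angiotensin II receptor, averaged 8.53 ± 3.88 CPM in the embryo media and 5.05 ± 2.70 CPM in CL-CM-EE, a log2 fold change of 0.84 (95% interval from 0.24 to 1.43, unadjusted p = 0.0103). OXT, the luteal hormone oxytocin, was at 111, 57.2 and 8.62 CPM in CL-CM-EE-AI, at 221, 39.9 and 6.69 CPM in CL-CM-EE-IVF and at 73.2, 41.5 and 5.61 CPM in CL-CM-EE. Here 5 of 6 embryo libraries were above, and the R5 libraries lay far below those of R2, with a log2 fold change of 0.61 (95% interval from 0.04 to 1.17, unadjusted p = 0.0371). Leaving out CL-CM-EE R2 put it at 0.33 (unadjusted p = 0.263). Of the list for response to progesterone, oestrogen and oxytocin, 11 of 19 lay above 0, 2 at a low p, with a median of 0.10 that was 0.01 without CL-CM-EE-AI R2 and 0.03 without CL-CM-EE-AI R4. ESR1, the oestrogen receptor, averaged 28.5 ± 7.50 CPM in the embryo media and 21.8 ± 6.02 CPM in CL-CM-EE, with 0.39 (unadjusted p = 0.0320) and 6 of 6 above. PGR, the progesterone receptor, was at 6.37, 4.13 and 4.69 CPM in CL-CM-EE-AI, at 4.92, 5.98 and 3.32 CPM in CL-CM-EE-IVF and at 5.75, 4.59 and 6.97 CPM in CL-CM-EE. The sides overlapped, and its log2 fold change of -0.25 had an interval from -0.82 to 0.32 and turned to 0.057 with CL-CM-EE R5 left out.

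Genes of extracellular vesicle biogenesis, the subject of the study's title, had 25 of 43 members above 0, and 3 higher and 4 lower at a low p. Over all genes those shares were 54.3%, 5.5% and 4.06%. The list's median was 0.04, the same as over all genes to 2 decimals. It ran from -0.03 (CL-CM-EE R5 left out) to 0.14 (CL-CM-EE R2 left out). CD63, a tetraspanin of vesicles, was at 90.8, 210.0 and 55.1 CPM in CL-CM-EE-AI, at 129.9, 119.7 and 63.7 CPM in CL-CM-EE-IVF and at 96.1, 90.9 and 40.1 CPM in CL-CM-EE. CL-CM-EE-AI R2 was below CL-CM-EE R2 and the other 5 embryo libraries were above, with a log2 fold change of 0.53 (95% interval from 0.08 to 0.99, unadjusted p = 0.0257). CD9, another tetraspanin, was at 97.1, 57.05 and 19.3 CPM in CL-CM-EE-AI, at 81.8, 44.98 and 21.1 CPM in CL-CM-EE-IVF and at 138, 52.99 and 18.3 CPM in CL-CM-EE. It was above in 3 of 6, with -0.19 (interval from -0.55 to 0.16), which turned to 0.046 with CL-CM-EE R2 left out. VPS37B, a subunit of the sorting complex ESCRT-I, was at 38.4, 31.7 and 20.1 CPM in CL-CM-EE-AI, at 37.2, 34.6 and 19.3 CPM in CL-CM-EE-IVF and at 53.4, 44.3 and 24.4 CPM in CL-CM-EE. All 6 embryo libraries were below CL-CM-EE of their number, with a log2 fold change of -0.41 (95% interval from -0.66 to -0.16, unadjusted p = 0.00457). SDCBP, the adaptor syntenin, averaged 138 ± 46.02 CPM in the embryo media and 198 ± 101 CPM in CL-CM-EE, with -0.43 (unadjusted p = 0.0135), and 5 of 6 embryo libraries were below.

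The remaining 9 lists had medians between -0.05 and 0.16, and of these only the heat shock and antioxidant medians kept their sign under every scaling. With 1 library left out 8 of the 9 medians, all but the antioxidant one, took both signs, and the antioxidant median of 0.15 was 0.03 without CL-CM-EE-AI R4. Heat shock and unfolded protein genes had 25 of 35 above 0, 4 higher and 2 lower at a low p, with PDIA4, a disulfide isomerase, at 0.42 and ERN1, the stress sensor IRE1, at -0.57, or -0.14 (unadjusted p = 0.416) without CL-CM-EE R2. Their median of 0.16 was -0.05 without CL-CM-EE R5. Antioxidant genes had 20 of 30 above 0, 3 higher and 2 lower, with GSTM1, a glutathione transferase whose family members may share reads, at 0.57 and TXN2, mitochondrial thioredoxin, at 0.44. The hypoxia and glycolysis median was -0.04, with -0.47, 0.05 and 0.31 within R2, R4 and R5, so R2 lay against the other numbers. In that list PFKM, a phosphofructokinase, had 0.51 and HK1, a hexokinase, -0.37. Apoptosis genes had 16 of 33 above 0, 1 higher and 1 lower, with BCL2L11, the death activator BIM, at -0.49 (-0.31 without CL-CM-EE R4) and CYCS, cytochrome c, at 0.50.

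Immediate early genes had 13 of 31 above 0, 3 higher and 1 lower at a low p, with CYR61, a matricellular protein, at 0.34 and IER3, a survival gene, at 0.47 (0.26 without CL-CM-EE R5). Cell cycle genes had 14 of 29 above 0 and 2 lower, CDK6 at -0.38 (-0.18, unadjusted p = 0.273, without CL-CM-EE R4) and cyclin B2, CCNB2, at -0.95, both below CL-CM-EE in 6 of 6 embryo libraries. In the insulin-like growth factor list 11 of 21 lay above 0, 2 higher and 1 lower, and GRB14 at 0.70 and its relative GRB10 at -0.44 (-0.28 without CL-CM-EE R4) differed in sign. The TGF-beta list had 17 of 34 above 0, 1 higher and 1 lower, with the signal carrier SMAD3 at -0.60 (-0.40 without CL-CM-EE R4) and the coreceptor TGFBR3 at 0.38. Proteasome genes had 16 of 30 above 0 and 1 higher, the core subunit PSMB3 at 0.38, while PSMB6, another core subunit, had 0.49 (unadjusted p = 0.102). By edgeR 0 of the genes of these 9 lists passed the adjusted threshold, and DESeq2 called GRB14.

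**Figure D5:**
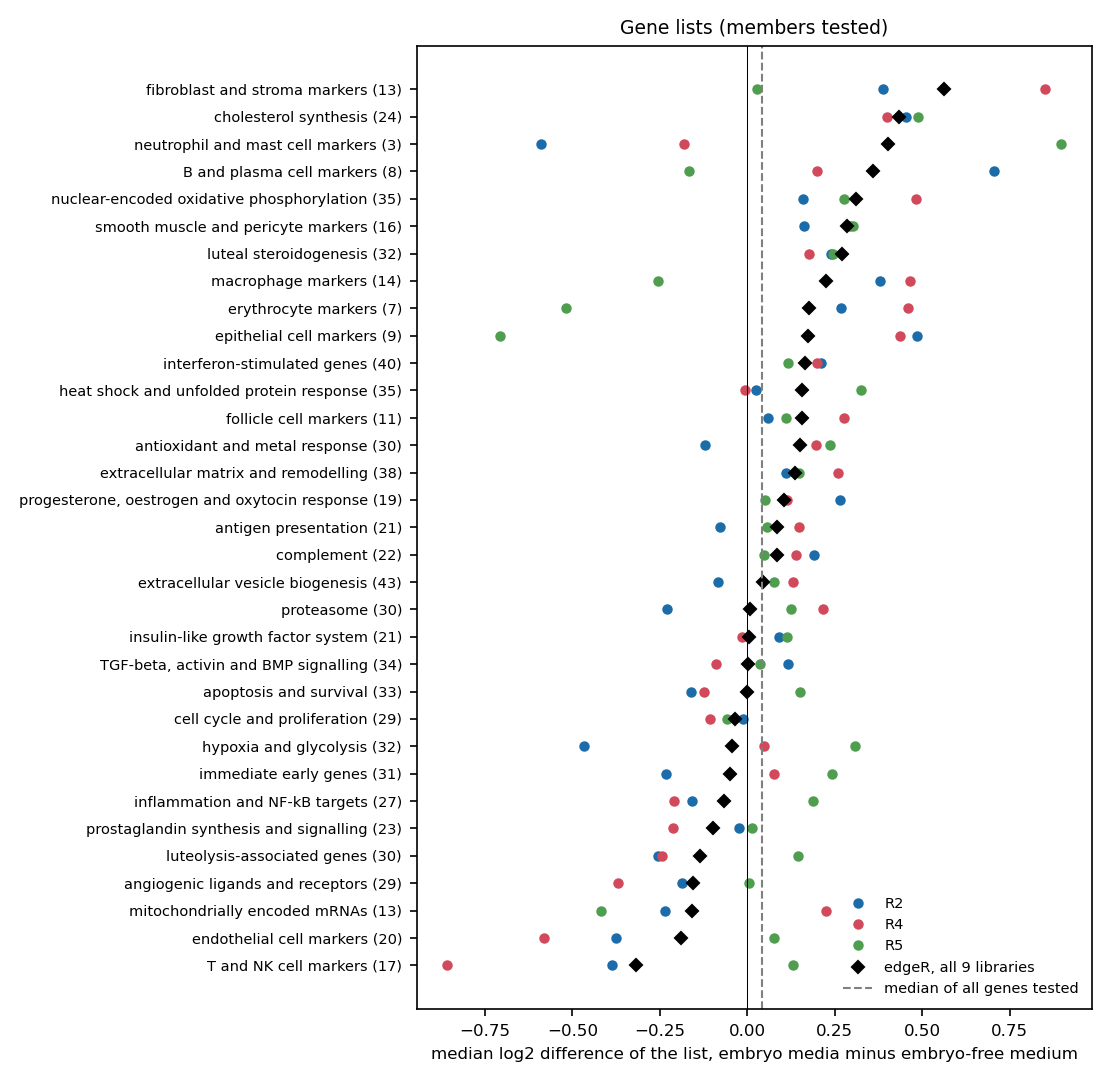
Median log2 difference, embryo media minus CL-CM-EE, of each of 33 gene lists, with the number of members tested in brackets. Diamonds are medians of edgeR log2 fold changes over 9 libraries, circles are medians within R2, R4 and R5, and the dashed line is the median over all genes tested (0.04). Cholesterol synthesis, oxidative phosphorylation and steroidogenesis lie right of the line in each R number. So do the interferon, extracellular matrix, complement, smooth muscle, follicle and progesterone response lists. Endothelial, T and NK cell medians have R5 on the other side of 0, as do others such as luteolysis and angiogenic genes.

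Set against CL-CM-EE one medium at a time, neither embryo medium gave a called gene by edgeR. CL-CM-EE-AI had 633 genes higher (3.44%) and 375 lower (2.04%) at an unadjusted p under 0.05, with a lowest adjusted p of 0.890. CL-CM-EE-IVF had 611 higher (3.32%) and 477 lower (2.59%), with a lowest adjusted p of 0.831. The comparisons share the 3 CL-CM-EE libraries, so their values are given only side by side. LHCGR had 1.00 for CL-CM-EE-AI and 0.82 for CL-CM-EE-IVF, HSD3B1 0.83 for CL-CM-EE-AI and 0.69 for CL-CM-EE-IVF, and NR5A1 0.68 for CL-CM-EE-AI and 0.59 for CL-CM-EE-IVF. PDGFRA had 0.71 for CL-CM-EE-AI and 1.10 for CL-CM-EE-IVF. The list medians for cholesterol synthesis were 0.43 for CL-CM-EE-AI and 0.45 for CL-CM-EE-IVF, those for steroidogenesis 0.29 for CL-CM-EE-AI and 0.25 for CL-CM-EE-IVF, and those for stroma markers 0.36 for CL-CM-EE-AI and 0.75 for CL-CM-EE-IVF.

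The embryo media were also set against each other, which uses no CL-CM-EE library as a shared base. CL-CM-EE-IVF against CL-CM-EE-AI gave 0 genes past the edgeR threshold, with a lowest adjusted p of 1.00. An unadjusted p under 0.05 was reached by 56 genes higher and 110 lower, together 166 or 0.902%. The median log2 difference of stroma markers was 0.31 and that of extracellular matrix genes 0.26, beside -0.05 over all genes. The intervals at these library numbers were wide: for LHCGR the difference was -0.19 with an interval from -0.77 to 0.40, for HSD3B1 -0.14 with an interval from -0.74 to 0.45, and for PDGFRA 0.39 with an interval from -0.07 to 0.84.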

How the data were processed

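RNA of bovine corpus luteum was sequenced, and 9 libraries of the deposited table were used, 3 each of CL-CM-EE-AI, CL-CM-EE-IVF and CL-CM-EE, while the 3 CL-NC columns were not. Per the labels, RNA was extracted with a column kit and treated with DNase, and the library kit and run named there are those of the endometrial explants. The kit of the corpus luteum libraries and the strand setting are not stated. Whether reads of overlapping and antisense genes were told apart is therefore not known. The authors deposited whole counts per gene, with 0 fractional values, so estimated or expected counts are in effect read counts here and no rounding was needed. Per the submitters' processing notes, Trim Galore and cutadapt, the aligner STAR, the counter featureCounts and also DESeq2 were among the tools used. No coordinates or sequences are printed, with the versions, genome build and annotation not given in the sources used here. Deposited were 19112 genes, of which 17399 match a current symbol or locus tag, and the lowest total over the 12 columns is 36 counts. How the 2 titles of R4 and R5 were joined into 1 column is not stated, and 0 of 36 library pairs were identical.

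Low genes were removed with filterByExpr by side, which left 18404, and libraries were scaled by TMM. The fit was edgeR's quasi-likelihood F test on the side of the comparison with the R number as a block, because the rule of this comparison fixes that block, with Benjamini-Hochberg adjustment over all genes and a threshold of 0.05. The script was tested on simulated counts. CPM are TMM-normalised counts-per-million, log2 fold changes are embryo media minus CL-CM-EE with 95% intervals, and levels are not comparable between genes because they carry no length. CL-CM-EE-AI, CL-CM-EE-IVF and CL-CM-EE were also fitted as 3 groups. Shares of counts were tested with an exact two-sided permutation of the labels within R numbers. Intervals cover counting error and the spread between these libraries only. The biological coefficient of variation was 0.348 and the standard error of the log2 fold changes had a median of 0.268.

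The text names the 8 genes per direction with a symbol, at least 1 CPM on either side and the lowest p, the 2 such members of each of 23 lists with the lowest p, and 13 genes in any case (STAR, CYP11A1, HSD3B1, LHCGR, PTGFR, OXT, PGR, VEGFA, ISG15, MX1, MX2, CD9 and CD63), 72 in all, of which some results are not reported here. A further 10 lists hold cell type markers. Of 816 different genes over all lists, 758 matched the table. The comparison, the lists and the naming rule were chosen with earlier results of these data known. Alternatives were no block, 3 groups, summed embryo libraries, DESeq2, other scalings, no filter, limma voom and leaving out libraries. Software was Python 3.11.15 with numpy 2.4.6, pandas 2.3.3 and matplotlib 3.10.9, and R 4.3.3 with DESeq2 1.42.0, edgeR 4.0.16 and limma 3.58.1.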

Additional observations from a re-analysis of the deposited data

Results flagged for a closer look

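CL-CM-EE-AI R4 lay far from the other 5 embryo libraries in 4 of 79 values tested, 72 named genes and 7 library measures, by the ratio of its gap to the whole range. Chance flags about 1 in 20 such groups, and whether it would place all 4 in 1 library was not tested. The library held 17488966 counts, against 21273919 to 22702830 in the other embryo libraries. TMEM201 was at 2.23 CPM in it, against 4.06 to 5.78 CPM in the others. MYO15B was at 0 CPM, against 0.491 to 0.689 CPM, and NOS3 was at 14.6 CPM, against 20.5 to 23.9 CPM. For all 3 genes this library was the lowest of the embryo side and so on the side of the reported difference. Without it, the log2 fold change was -2.47 for TMEM201, -3.16 for MYO15B and -0.52 for NOS3.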

How the results depend on the processing

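Of 72 named genes, 70 had a value under all 23 alternatives, ND3 and ND4 lacking one without mitochondrial genes, and 68 kept their sign wherever they had a value. The count of genes past the threshold was 0 with TMM and edgeR, 83 with DESeq2 and 1 with limma voom, and between 0 and 8 when a library or a whole R number was left out (3 with CL-CM-EE R2 left out, 1 each with CL-CM-EE-IVF R4 or CL-CM-EE R4 left out, and 4 or 8 with R2 or R4 of all groups left out). Those 8 included TMEM201 and MYO15B. Genes with an unadjusted p under 0.05 numbered 176 higher and 217 lower without the replicate block, and 2470 and 200 with library totals. They numbered 802 higher and 391 lower with the embryo libraries of an R number summed. For CL-CM-EE-AI alone they were 633 higher and 375 lower, and for CL-CM-EE-IVF alone 611 and 477. With 1 library left out they ran from 491 to 1184 higher and from 277 to 1115 lower, and without R4 of all groups they were 189 and 466. CL-CM-EE-AI alone and CL-CM-EE-IVF alone rest on fewer libraries, and otherwise the cause was not tested. The signs of 4 genes turned. PGR ran from -0.41 to 0.057 with 1 library left out, positive in the fit lacking CL-CM-EE R5, and was 0.058 without all R5 libraries. VEGFA ran from -0.044, again lacking CL-CM-EE R5, to 0.33, and was -0.044 without all R5 libraries. CD9 ran from -0.35 to 0.046, positive in the fit lacking CL-CM-EE R2, and was 0.045 without all R2 libraries. ISG15 ran from -0.15 to 0.060, positive in the fits lacking R2 or R4 of CL-CM-EE-IVF (0.018 and 0.010) or of CL-CM-EE (0.060 and 0.020), and was 0.12 with library totals, 0.060 without all R2 libraries and 0.013 for CL-CM-EE-AI alone. Of 758 list medians recomputed, 72 moved by more than the SD between R numbers.

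Libraries of an R number resembled one another unevenly, and no bound for pairing was set here. After centring on group means, the 9 correlations across genes within an R number lay between 0.03 and 0.60, 2 of them with CL-CM-EE-AI R2 under 0.1, and the 18 others lay between -0.47 and 0.22. Of 9 libraries, 8 correlated best with a library of their own number. Genes are not independent replicates, and centring sets part of the negative values. The replicate block is therefore kept by the rule of the comparison and not shown by the labels to join libraries of 1 source. With 3 libraries in CL-CM-EE and with about 51.2% (embryo media) and 54.1% (CL-CM-EE) of the counts taken by mitochondrial transcripts, differences of low genes are the least precise.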

Other observations

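Of the 83 genes DESeq2 called, out of 10911 with an adjusted p, 8 belong to the lists, which hold 758 matched genes. Whether list genes were called more often than others was not tested. Some of the others are given here, chosen after their values were seen, as values of a single tool, since edgeR called 0 of them. TTN, the giant sarcomere protein titin, had a DESeq2 log2 fold change of 1.07 (adjusted p = 0.0158), TNNI3, cardiac troponin I, 0.82 (adjusted p = 0.0195) and TPM1, a tropomyosin, 0.70 (adjusted p = 0.0418). FABP3, the fatty acid carrier of heart and muscle, had 0.93 (adjusted p = 0.0422). TNNI3 was at 17.7, 26.6 and 18.7 CPM in CL-CM-EE-AI, at 15.9, 22.9 and 24.7 CPM in CL-CM-EE-IVF and at 11.2, 11.1 and 12.2 CPM in CL-CM-EE, so its sides did not overlap. LRP1, an endocytic receptor, had 0.71 (adjusted p = 0.0282) and A2M, a protease inhibitor that it clears, 0.57 (adjusted p = 0.0422). A2M was at 239, 826 and 312 CPM in CL-CM-EE-AI, at 281, 648 and 354 CPM in CL-CM-EE-IVF and at 195, 459.8 and 205 CPM in CL-CM-EE, with the R4 libraries above the rest. PLA2R1, a receptor of secreted phospholipases, had 0.78 (adjusted p = 0.0416), SVEP1, an adhesion protein of the matrix, 1.07 (adjusted p = 0.0262) and PTHLH, a hormone-like peptide of many tissues, 1.06 (adjusted p = 0.0123). For these 9 genes, as for all 41 that DESeq2 called higher, 6 of 6 embryo libraries were above the CL-CM-EE library of their number. Over all genes tested 7.73% had this order. A call with the R number as a block favours it, and both embryo libraries of a number share its CL-CM-EE library. The order is therefore no separate support.

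In the lower direction ITGB3, an integrin chain, had a DESeq2 log2 fold change of -0.81 (adjusted p = 0.0296), MYCT1, a gene of endothelial cells, -0.72 (adjusted p = 0.0220), and PDE4D, which breaks down cyclic AMP, -0.68 (adjusted p = 0.0204). MYCT1 was at 27.3, 24.9 and 29.96 CPM in CL-CM-EE-AI, at 31.01, 22.5 and 32.01 CPM in CL-CM-EE-IVF and at 48.5, 47.6 and 37.9 CPM in CL-CM-EE, and its sides did not overlap. RN7SL1, whose share of counts is given above, had -0.62 (adjusted p = 0.0352). For these 4 genes, as for 35 of the 42 that DESeq2 called lower, 6 of 6 embryo libraries were below the CL-CM-EE library of their number. Over all genes tested 4.59% had this order, which the choice of called genes again favours.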
